A study of Mus musculus with 11 samples.

Results

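Dorsal root ganglia (DRGs) of untreated mice that lack *Gpr37l1* were compared with DRGs of untreated WT mice, across all genes expressed in the tissue. The comparison used 6 of the 11 libraries of the series, 3 from KO control mice (genotype Gpr37L1 KO) and 3 from WT control mice, and none of these mice had received paclitaxel. The other 5 libraries, from WT and KO mice 4 weeks after paclitaxel, were part of the same fit. They helped to estimate the spread between libraries and the effect of labelled sex. Fold changes differed somewhat when the 6 control libraries were fitted alone. Of the 36670 genes in the deposited table, 15103 had a mean FPKM of at least 0.5 over the 6 control libraries and were tested. FPKM is a read level divided by transcript length and by the depth of the library, so that long genes and deep libraries do not look higher. Genes just inside this limit had means from 0.5 FPKM, and the highest mean outside it was 0.498 FPKM. In each genotype libraries 1 and 2 are labelled male and library 3 female, so that sex and the number 3 cannot be told apart. Libraries are called mice by their number below, although the labels do not say how many mice make a library. The same number in KO and WT names different mice. The KO is a constitutive targeted allele (strain name B6;129S5-*Gpr37l1* tm1Lex), so every cell type of the mouse lacks the gene. The strain and its littermates were kept with a C57BL/6 background. Whether the WT mice sequenced were littermates is not given in the sources used here. The age of the mice sequenced and the spinal levels of their DRGs are not given in the sources used here.

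GPR37L1 is a G protein-coupled receptor of glial cells and a relative of GPR37 and of the endothelin receptors. In the DRG it marks satellite glia, the flat cells that wrap the cell bodies of sensory neurons, take up potassium and neurotransmitter around them and exchange small molecules through gap junctions. Whole DRGs also hold the neurons themselves, Schwann cells, macrophages, vessels and connective tissue. In such bulk tissue, fewer cells of a type and less RNA per cell cannot be told apart.

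The 6 libraries held 52735648 to 78700213 estimated read counts, with WT control 1 as the shallowest. The general neuronal markers were all measured in each library, whereas 9 of the 11 markers of spinal cord and central glia were below the FPKM limit. Some of these 9 were nevertheless highest in WT control 1. There *Mobp* was at 1.57 FPKM, against 0.04 to 0.25 FPKM in the other 5 libraries, and *Gad1* at 0.60 FPKM, against 0.07 to 0.10 FPKM. *Slc6a5*, *Chat* and *Hapln2* were not highest there. WT control 1 stood apart by RNAs without a poly(A) tail: *Rn7sk* was at 90.8 FPKM there and at 4.03 to 9.73 FPKM in the other 5 libraries, and the ribosomal RNA-like gene CT010467 (ENSMUSG00000106106) was at 14803 FPKM there and at 1435 to 2889 FPKM in the others. The first principal component, with 31.9% of the variance, set WT controls 1 and 2 against WT control 3 and KO control 3. KO control 3 went against its label in part. Labelled female, it held *Xist* at 0.05 FPKM, against 8.63 FPKM in WT control 3, and the Y-linked genes *Ddx3y* and *Eif2s3y* at only 0.02 and 0.03 FPKM. *Eif2s3x*, an X-linked gene that escapes inactivation, was at 25.7 FPKM in KO control 3, at 43.4 FPKM in WT control 3 and at 20.1 to 27.1 FPKM in the 4 male controls. Results that moved most when a library was left out are given with the value without it.

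*Gpr37l1* (ENSMUSG00000026424, minus strand, chr1:135160234-135167681 of mm10) was the gene with the smallest p value. KO controls 1, 2 and 3 held 0.21, 0.25 and 0.29 FPKM of it. WT controls 1, 2 and 3 held 35.7, 34.9 and 27.6 FPKM. The groups were far apart, and the KO mean of 0.250 ± 0.0400 FPKM was 0.764% of the WT mean of 32.7 ± 4.48 FPKM (SD, 3 libraries each). The log2 fold change was -7.03 (SE 0.37, adjusted p = 4.05e-05 in the quasi-likelihood test of edgeR, adjusted by Benjamini-Hochberg). On FPKM alone, an exact two-sided permutation test gave p = 0.1, which is the smallest value that 3 libraries against 3 allow. The remaining signal rested on 39, 48 and 56 estimated counts in the KO controls.

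*Gpr37l1* was also the only gene that passed an adjusted p of 0.05 with edgeR, 0.00662% of those tested, and 0 genes passed in the direction of higher expression in the KO. At an unadjusted p under 0.05 there were 1149 genes (7.61%), of which 607 were higher in the KO (4.02%) and 542 lower (3.59%). With the 6 control libraries fitted alone in edgeR, 679 genes were at that threshold, and *Gpr37l1* was again the only one past the adjusted threshold. The FPKM values of the groups did not overlap for 688 genes with higher values in the KO (4.56%) and for 721 with lower values (4.77%). DESeq2, run as an alternative on the same libraries, called 42 genes (0.278%), 19 higher and 23 lower and had 1286 genes (8.51%) at an unadjusted p under 0.05. When DESeq2 was fitted to the 6 control libraries alone it called 36 genes, of which 17 were among those 42. The median log2 fold change over all tested genes was 0.0042, and 51% of them had a positive value and 49% a negative one. All differences described from here on, other than that of *Gpr37l1*, missed the adjusted threshold with edgeR and are given as measured values, and counts over gene groups are to be read against these background shares.

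**Figure D1:**
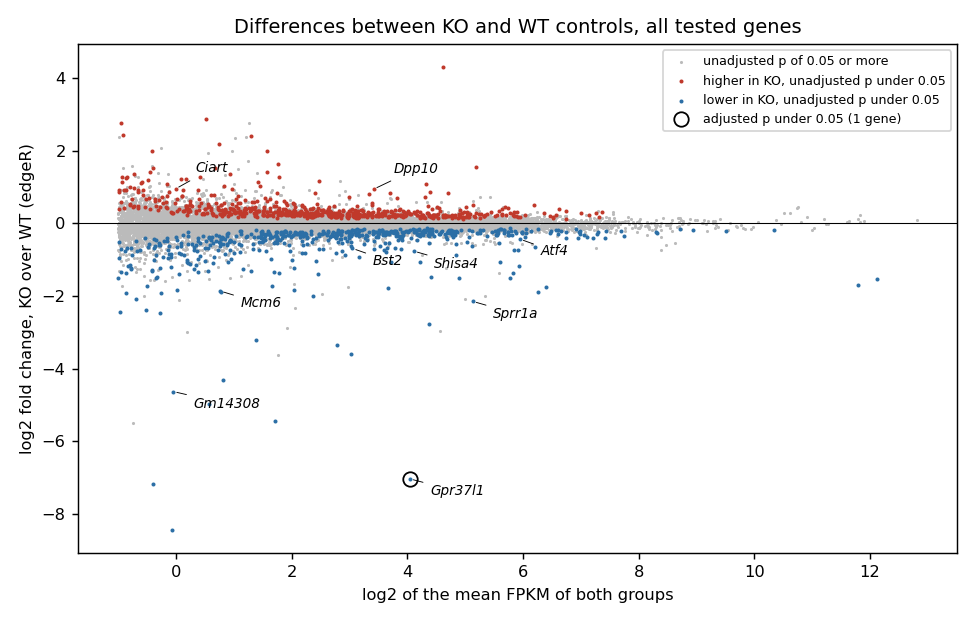
Each point is a tested gene, with the log2 of its mean FPKM on the horizontal axis and its log2 fold change, KO over WT controls, on the vertical axis. Red and blue points had an unadjusted p under 0.05, and the circled gene, *Gpr37l1* at -7.03, was the one with an adjusted p under 0.05.

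Among genes that were higher in the KO without overlap between the groups, *Dpp10* had the smallest p value. It encodes an auxiliary subunit of Kv4 potassium channels. KO controls 1, 2 and 3 held 15.3, 13.7 and 12.9 FPKM and WT controls 6.91, 5.98 and 9.20 FPKM, a log2 fold change of 0.94 (SE 0.15, adjusted p = 0.243 by edgeR). The lowest KO library was well above the highest WT library. *Ciart*, a repressor of the circadian clock, was at 1.27, 0.98 and 1.71 FPKM in KO controls and at 0.63, 0.60 and 0.77 FPKM in WT controls (log2 fold change 0.95, SE 0.21). *Fgf12*, an intracellular fibroblast growth factor homologue that binds voltage-gated sodium channels, was at 60.7, 57.5 and 59.3 FPKM in KO controls and at 37.2, 38.6 and 55.3 FPKM in WT controls (log2 fold change 0.46, SE 0.10). WT control 3 lay close to the KO libraries for *Fgf12*, while the other WT mice lay well below. The other genes at the top of this order were *9330159F19Rik* (log2 fold change 0.71), the RNA helicase *Ddx59* (0.63), the lipid transporter *Abca6* (0.59), the guidance cue *Sema3e* (0.39), the transcription factor *Klf11* (0.47), the synaptic adhesion gene *Slitrk4* (0.49), *4930503L19Rik* (0.38), the calcineurin regulator *Rcan2* (0.29) and *Bend6* (0.29). DESeq2 called *Dpp10*, *9330159F19Rik*, *Ddx59*, *Ciart*, *Abca6*, *Fgf12*, *Slitrk4* and *Rcan2*.

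Among genes that were lower in the KO without overlap, *Shisa4* and *Phlda3* followed *Gpr37l1*. *Shisa4*, a membrane protein of the Shisa family, was at 12.8, 13.1 and 12.5 FPKM in KO controls 1, 2 and 3 and at 24.5, 22.6 and 18.4 FPKM in WT controls, a log2 fold change of -0.76 (SE 0.10, adjusted p = 0.0971 by edgeR). *Phlda3*, a p53 target whose protein limits Akt signalling, was at 12.2, 11.3 and 10.5 FPKM against 21.2, 17.5 and 16.6 FPKM (log2 fold change -0.70, SE 0.10, adjusted p = 0.184 by edgeR). The values of both genes were tight within the KO and more spread in the WT, where control 1 was highest. *Mcm6*, a subunit of the replicative DNA helicase, was at 0.56, 0.43 and 1.33 FPKM in KO controls and at 2.88, 2.53 and 2.46 FPKM in WT controls (log2 fold change -1.86, SE 0.34). Of 13 tested cell cycle and DNA replication genes 12 had a negative fold change, and 1 was lower and 1 higher at an unadjusted p under 0.05 in edgeR. Their median was -0.34, but -0.05 without WT control 1. *Gm14308* was at 0.08 to 0.09 FPKM in KO controls and at 1.30 to 2.83 FPKM in WT controls (log2 fold change -4.63, SE 0.91). Further genes in this order were *Bst2*, *Atf4*, *Timm17a*, *Slc29a2*, *Pcdhgb6*, *Nav1* and *Gm15445*. *Slc29a2*, a nucleoside transporter, had a log2 fold change of -0.54 (SE 0.12), and *Pcdhgb6*, which shares its last exons with the other genes of the gamma protocadherin cluster, had one of -0.50 (SE 0.11).

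**Figure D2:**
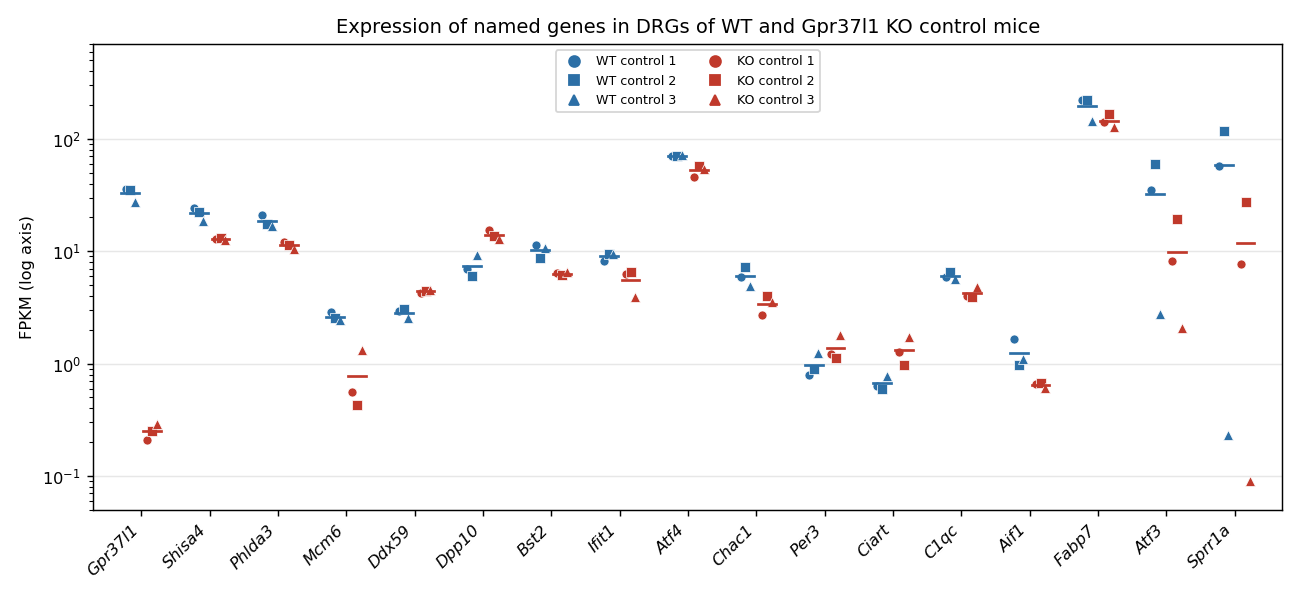
FPKM on a log axis for 17 genes described in the text, with WT controls in blue, KO controls in red, a marker shape for each mouse number and a bar at each group mean. The groups are apart for *Gpr37l1* (0.21 to 0.29 against 27.6 to 35.7 FPKM) and *Shisa4*, whereas *Atf3* and *Sprr1a* are low in mouse 3 of both genotypes.

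Several of these genes lie near *Gpr37l1* on chromosome 1. Within 10 Mb on either side 108 other genes were tested. An unadjusted p under 0.01 was reached by 11 of them (10.2%, against 1.36% of all tested genes), and the groups did not overlap for 26 (24.1%, against 9.33% of all tested genes). *Timm17a*, a subunit of the mitochondrial import machinery, ranged over 7.80 to 8.0 FPKM in KO controls and was at 10.7, 9.31 and 10.2 FPKM in WT controls (log2 fold change -0.34, SE 0.08). *Nav1*, a microtubule-binding neuron navigator, was at 5.61, 5.99 and 5.51 FPKM against 7.40, 9.42 and 7.76 FPKM (-0.52, SE 0.12). *Ddx59* went the other way, with 4.22, 4.44 and 4.55 FPKM in KO controls and 2.96, 3.04 and 2.54 FPKM in WT controls. *Cd55b*, a complement regulator, was likewise higher in the KO, at 2.31, 2.54 and 2.08 FPKM against 0.82, 0.95 and 1.91 FPKM (log2 fold change 1.02, SE 0.27). Reads of *Cd55b* may be shared with its close relative *Cd55* (0.41, SE 0.13). *Gm15445*, *Cyb5r1* (-0.19, SE 0.05) and *Gm8451* (-0.94, SE 0.29) completed the 11 with *Shisa4*, *Phlda3* and *Mcm6*. *Ddx59*, *Nav1*, *Gm15445*, *Cd55*, *Cd55b* and *Gm8451*, and also *Dpp10* and *Ciart*, overlap another gene on the same or the other strand, and whether reads were counted by strand is not stated. *Dpp10* lies just beyond the window, on the same chromosome.

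**Figure D3:**
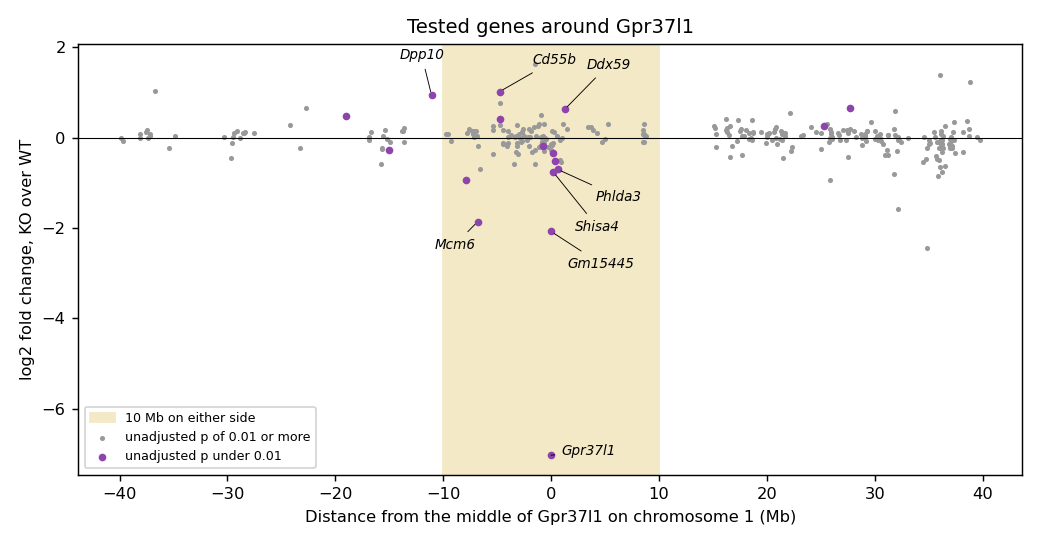
Log2 fold change, KO over WT controls, of the tested genes of chromosome 1 within 40 Mb against their distance from the middle of *Gpr37l1* in Mb, with genes at an unadjusted p under 0.01 in purple and the 10 Mb on either side shaded. Of these genes, 11 apart from *Gpr37l1* itself fall within the shaded range.

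Markers of satellite glia stayed close between genotypes apart from a pair of abundant lipid-binding genes. All 12 listed markers were tested, and 0 were higher and 2 lower at an unadjusted p under 0.05, with a median log2 fold change of -0.05. *Fabp7*, a fatty acid-binding protein and classical satellite glial marker, was at 141, 168 and 127 FPKM in KO controls and at 221, 223 and 145 FPKM in WT controls (log2 fold change -0.40, SE 0.11, adjusted p = 0.652 by edgeR). *Dbi*, which binds acyl-CoA and modulates GABA receptors, was at 87.9, 93.5 and 82.0 FPKM against 127, 106 and 89.2 FPKM (-0.28, SE 0.09, adjusted p = 0.652 by edgeR). In both genes the KO values were below those of the WT mouse of the same number, but WT control 3 was within the KO range. *Kcnj10*, the Kir4.1 channel of satellite glia, was at 15.9 FPKM in KO control 1, 15.3 FPKM in KO control 3 and 20.03 FPKM in KO control 2, and at 16.0, 22.5 and 14.6 FPKM in WT controls (log2 fold change -0.04, SE 0.14), with full overlap. *Glul*, glutamine synthetase, had 115, 104 and 101 FPKM in KO controls against 89.8, 105 and 97.1 FPKM (0.13, SE 0.08). The summed FPKM of the list was 1455 to 1631 in KO controls and 1377 to 1879 in WT controls. Without WT control 1 the median of the list was 0.04, and without KO control 3 it was 0.01. Of the 10 genes shared by satellite and Schwann cells 1 was higher, the cadherin *Cdh19* (0.27, SE 0.12), and of 12 genes of myelinating Schwann cells none passed in either direction (0 of 12 with edgeR at an unadjusted p under 0.05, and 0 adjusted with DESeq2).

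Genes whose products are related to GPR37L1 or have been placed in its signalling were followed next. *Gpr37*, the closest relative, was at 2.59, 2.31 and 2.48 FPKM in KO controls and at 2.16, 2.64 and 2.68 FPKM in WT controls (log2 fold change -0.02, SE 0.11). *Psap*, which encodes prosaposin, a proposed ligand, was at 545 to 581 FPKM in KO controls and at 557 to 589 FPKM in WT controls (-0.02, SE 0.06). Log2 fold changes of the 10 genes in this list ran from -1.34 to 0.31, and 1 gene was higher at an unadjusted p under 0.05. This was *Kcnj3*, the GIRK1 potassium channel subunit, at 5.90, 5.41 and 6.38 FPKM against 4.46, 3.93 and 6.00 FPKM (0.31, SE 0.10, adjusted p = 0.652 by edgeR), where WT control 3 overlapped the KO values. *Ptch1*, the Hedgehog receptor, had a log2 fold change of 0.19 (SE 0.09) and did not pass. Among 9 inward rectifier channel genes *Kcnj3* was again the only one at an unadjusted p under 0.05. Genes of glial glutamate and GABA uptake (0 of 8), connexins and pannexins (0 of 10) and the enzymes and receptors of pro-resolving lipid mediators (0 of 7) had no member at that threshold in the same fit, and their medians were -0.01, -0.03 and -0.02. The uptake list was not flat, since its log2 fold changes ran from -1.34 to 0.32.

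Sensory neuron markers showed small differences in both directions. Of 13 general neuronal markers, *Prph*, peripherin, was at 660, 673 and 700 FPKM in KO controls and at 827, 834 and 689 FPKM in WT controls (log2 fold change -0.20, SE 0.08), and *Tubb3*, neuronal tubulin, had a log2 fold change of -0.18 (SE 0.08). The median of the 13 was 0.09, and it was 0.03 without WT control 1 and -0.02 without KO control 2. None of the 13 (0) was lower at the unadjusted threshold in edgeR without WT control 1, WT control 2 or KO control 1. Markers of nonpeptidergic nociceptors were positive for 8 of 9, against 51% of all tested genes. Their median was 0.20, and 2 of them passed the unadjusted threshold. These were *Scn11a*, the Nav1.9 channel (0.18, SE 0.07), and *Plxnc1*, a semaphorin receptor (0.25, SE 0.08). The count was 0 without KO control 1 and 0 without labelled sex in the fit, and without WT control 2 it was 1 and the median 0.08. All 5 tested markers of *Mrgpra3* itch neurons were positive, with a median of 0.23, and 0 passed. The 9 markers of peptidergic nociceptors had a median of -0.13 with 0 at the unadjusted threshold in edgeR and 1 lower in DESeq2. Without WT control 1 the median was -0.27 and 4 were lower, without KO control 3 it was -0.21 and 3 were lower, and without WT control 2 it was -0.0063 and 0 were lower. In large-diameter A-fibre neurons, *Etv1* (0.37, SE 0.12) and *Ntrk3* (0.21, SE 0.09) were the 2 of 12 at that threshold, and in both WT control 3 was as high as the highest KO library. That count was 0 without KO control 1 and 0 without labelled sex in the fit.

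Voltage-gated sodium channels were higher in the KO for 8 of 11 genes, against 51% of all tested genes, with a median log2 fold change of 0.15. At an unadjusted p under 0.05, 3 were higher and 1 lower, and the groups did not overlap for 4 of the higher ones. *Scn11a* was at 96.0, 96.2 and 99.7 FPKM in KO controls and at 86.8, 76.4 and 95.7 FPKM in WT controls. *Scn3b*, an auxiliary beta subunit, was at 19.8, 19.9 and 19.3 FPKM against at most 18.4 FPKM in WT controls (0.16, SE 0.07), and *Scn8a*, Nav1.6, had a log2 fold change of 0.08 (SE 0.06) and did not pass. *Scn2a* stood opposite, at 0.24, 0.28 and 0.24 FPKM in KO controls and at 1.03, 0.25 and 0.96 FPKM in WT controls (-1.51, SE 0.41). WT control 2 matched the KO libraries for *Scn2a*, so its difference rested on the other WT mice. With KO control 1 left out, and likewise with the 6 control libraries fitted alone, the count of higher channel genes was 1 in place of 3. *Scn9a* (0.29, SE 0.14) and *Scn10a* (0.04, SE 0.09), the main nociceptor channels, did not pass. Of 30 voltage-gated and 2-pore potassium channel genes, 22 were positive with a median of 0.10, 1 was higher at the unadjusted threshold and 1 lower, the latter *Kcnk12* (-0.39, SE 0.16), and *Trpc6* was the 1 of 14 TRP, Piezo and acid-sensing channels past that threshold (0.33, SE 0.14).

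Macrophage markers were lower in the KO as a group. Of 12 tested, 0 were higher and 4 lower at an unadjusted p under 0.05, the groups did not overlap for 5, and the median log2 fold change was -0.31. *C1qc*, a chain of complement C1q, was at 4.00, 3.93 and 4.76 FPKM in KO controls 1, 2 and 3 and at 5.90, 6.50 and 5.61 FPKM in WT controls (-0.51, SE 0.15, adjusted p = 0.652 by edgeR). *C1qb* followed it with -0.47 (SE 0.17). *Aif1*, which encodes IBA1, was at 0.66, 0.67 and 0.61 FPKM against 1.67, 0.97 and 1.09 FPKM (-0.92, SE 0.32), and *Adgre1*, which encodes F4/80, was -0.42 (SE 0.16). For each of these genes the highest KO library was below the lowest WT library. *Csf1r*, the receptor for the macrophage growth factor CSF1, was at 4.18, 3.95 and 4.22 FPKM against 5.18, 5.01 and 4.33 FPKM (-0.23, SE 0.14), apart by a narrow margin in mouse 3. *Cx3cr1* (-0.36, SE 0.19) did not pass, and *Cd163* was the other way (0.32, SE 0.31). The summed FPKM of the 12 markers was 67.3 to 79.5 in KO controls and 75.0 to 94.9 in WT controls. The count of lower markers was 2 without KO control 1 and 3 to 5 without one of the other libraries.

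**Figure D4:**
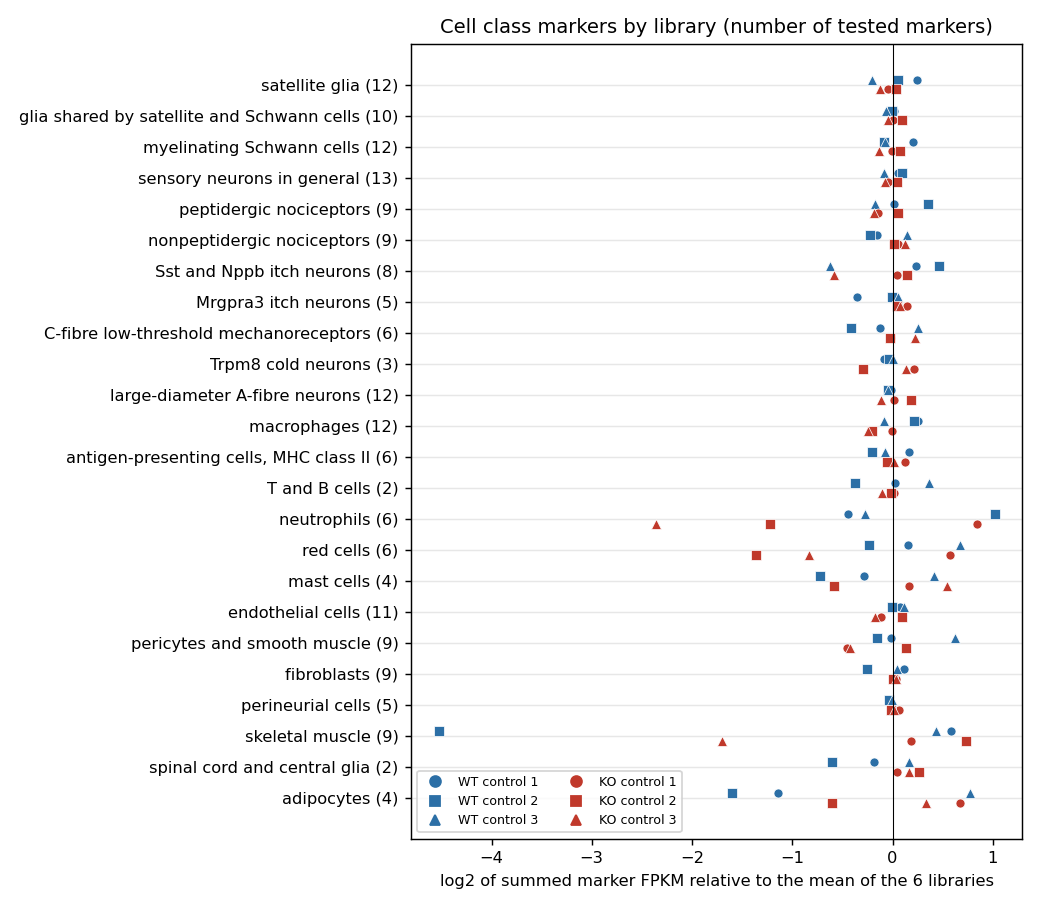
Summed FPKM of the tested markers of 24 cell classes in each library, as log2 relative to the mean of the 6 libraries, with WT controls in blue and KO controls in red and a marker shape for each mouse number. Macrophage sums run from 67.3 to 94.9 FPKM, satellite glial sums from 1377 to 1879 FPKM, and skeletal muscle, neutrophil, red cell and adipocyte markers vary by library within both genotypes.

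Interferon-stimulated genes were below the WT level in 16 of 17 tested members, against 49% of all tested genes. Interferons switch many of these genes on through a shared promoter element. With edgeR 5 members were lower at an unadjusted p under 0.05 and 0 higher, the groups did not overlap for 6, and the median log2 fold change was -0.23. *Bst2*, the antiviral protein tetherin, was at 6.37, 6.15 and 6.49 FPKM in KO controls and at 11.3, 8.64 and 10.7 FPKM in WT controls (-0.69, SE 0.14, adjusted p = 0.652 by edgeR). *Ifit1*, which binds viral RNA, was at 6.24, 6.48 and 3.89 FPKM in KO controls and at 8.12, 9.45 and 9.44 FPKM in WT controls (-0.75, SE 0.19). *Usp18*, a negative regulator of interferon signalling, was at 1.21, 1.16 and 0.92 FPKM against 1.74, 1.62 and 1.82 FPKM (-0.66, SE 0.21). *Oas1a* (-0.77, SE 0.27) and *Ifit3* (-0.31, SE 0.12) were the other 2. *Ifit2* was the member above 0 (0.03, SE 0.14). The summed FPKM of the list was 76.6 to 96.6 in KO controls and 103 to 107 in WT controls. DESeq2 called *Bst2* and *Ifit1* among the 17. The number at the unadjusted threshold was 9 without WT control 1, 2 without WT control 3 and 3 without KO control 3. Macrophage markers were lower too (median -0.31), and their part in these values was not tested.

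MHC class I genes, many of which respond to interferon, were lower in 11 of 12, with a median of -0.18, and 3 passed the unadjusted threshold. These were *Psmb10* (-0.37, SE 0.10) and *Psmb8* (-0.35, SE 0.14), subunits of the immunoproteasome, and *Tap1* (-0.58, SE 0.16), which pumps peptides into the endoplasmic reticulum. *Tap1* was at 2.02, 1.44 and 1.64 FPKM in KO controls and at 2.30, 3.20 and 2.17 FPKM in WT controls. Without WT control 3 or without KO control 3 it was 5 genes. The heavy chain gene *H2-D1* (-0.19, SE 0.10) did not pass. MHC class II markers had a median of 0.04 with 0 of 6 at that threshold, and 10 of 20 listed cytokine and chemokine genes were below the FPKM limit in this tissue.

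Promoter sequences are shown for lower genes of the interferon list because 16 of 17 members were lower. The bases are the 250 before the transcription start in RefSeq (build GRCm38.p6), written 5′ to 3′ on the strand of the gene. Capitals mark matches to GAAANNGAA, the core of the interferon-stimulated response element, on either strand. *Bst2* lies on the minus strand with this window at chr8:71537473-71537722, and its 2 matches overlap. *Ifit1* lies on the plus strand with the window at chr19:34640639-34640888 and has 3 matches, 2 of which overlap.
*Bst2*: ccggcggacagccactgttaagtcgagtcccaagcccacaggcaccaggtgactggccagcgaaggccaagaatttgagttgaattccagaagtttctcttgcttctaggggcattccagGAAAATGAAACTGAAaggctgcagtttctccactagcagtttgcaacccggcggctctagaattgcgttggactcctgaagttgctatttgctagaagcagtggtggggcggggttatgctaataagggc
*Ifit1*: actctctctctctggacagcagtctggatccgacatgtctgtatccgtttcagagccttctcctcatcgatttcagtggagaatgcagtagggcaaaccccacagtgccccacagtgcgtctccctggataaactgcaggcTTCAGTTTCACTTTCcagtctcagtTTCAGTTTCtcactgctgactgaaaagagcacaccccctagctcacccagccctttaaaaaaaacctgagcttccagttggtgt
Of the 17 list members 11 were found among the promoters, of which 7 held the motif (*Bst2*, *Ifit1*, *Ifit3*, *Isg15*, *Oas1a*, *Rsad2* and *Stat2*). Over all 32851 promoters 7.13% held it, and over the 10691 promoters of tested genes 5.92% did. A match is a run of letters and shows no binding of a factor.

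Genes of the integrated stress response were lower in the KO, led by its transcription factor *Atf4*. ATF4 is made when translation initiation is slowed and switches on genes of amino acid supply and of cell stress. *Atf4* mRNA was at 45.9, 57.2 and 54.4 FPKM in KO controls 1, 2 and 3 and at 70.2, 70.9 and 71.7 FPKM in WT controls (log2 fold change -0.43, SE 0.09, adjusted p = 0.652 by edgeR; called by DESeq2). The WT values lay close together and above each KO value. *Chac1*, which degrades glutathione, was at 2.70, 4.00 and 3.51 FPKM in KO controls and at 5.85, 7.20 and 4.92 FPKM in WT controls (-0.81, SE 0.24). *Asns*, asparagine synthetase, was at 55.9, 60.9 and 57.9 FPKM against 66.7, 74.0 and 64.5 FPKM (-0.23, SE 0.08). *Atf5* (-0.37, SE 0.12) and *Trib3* (-0.51, SE 0.22) were lower with overlapping groups. Of the 16 tested genes of this list, 13 had a negative fold change, 5 were lower and 1 higher at the unadjusted threshold, and the median was -0.20. The higher one was *Dnajb9*, a chaperone of the endoplasmic reticulum, at 17.3, 16.6 and 17.1 FPKM against 13.3, 14.2 and 15.7 FPKM (0.24, SE 0.07). *Hspa5*, the main chaperone of that compartment, was -0.05 (SE 0.08). Without WT control 2, and likewise without KO control 1, 3 were lower.

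The promoters of *Chac1* and *Asns* are shown because both genes were lower without overlap, with matches to TGATGNAA, the element bound by C/EBP and ATF factors, on either strand in capitals. The window of *Chac1* is on the plus strand at chr2:119350992-119351241 and that of *Asns* on the minus strand at chr6:7693210-7693459, each in GRCm38.p6.
*Chac1*: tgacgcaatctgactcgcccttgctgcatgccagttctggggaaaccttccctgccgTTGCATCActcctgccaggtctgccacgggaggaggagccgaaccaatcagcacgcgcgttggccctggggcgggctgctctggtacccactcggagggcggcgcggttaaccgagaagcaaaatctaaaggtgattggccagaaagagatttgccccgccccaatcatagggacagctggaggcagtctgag
*Asns*: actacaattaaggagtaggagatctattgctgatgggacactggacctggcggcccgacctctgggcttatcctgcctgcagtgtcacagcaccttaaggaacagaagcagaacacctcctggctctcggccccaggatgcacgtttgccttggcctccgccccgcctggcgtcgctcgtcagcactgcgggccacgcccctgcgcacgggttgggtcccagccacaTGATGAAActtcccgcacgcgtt
All 16 members were found among the promoters and 3 held this motif (*Asns*, *Chac1* and *Herpud1*), against 3.45% of all promoters and 1.9% of those of tested genes. The window of *Atf4* did not hold these letters.

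Clock genes that peak together with *Per3* were higher in the KO. These genes are switched on by the CLOCK and BMAL1 pair through E-boxes and turned off by their own products in a daily cycle. Of 11 tested, 10 had a positive fold change (51% of all tested genes), 4 were higher and 0 lower at an unadjusted p under 0.05, and the median was 0.42. *Per3* was at 1.23, 1.12 and 1.80 FPKM in KO controls and at 0.79, 0.89 and 1.24 FPKM in WT controls (0.50, SE 0.10, adjusted p = 0.652 by edgeR). *Nr1d2*, which encodes the repressor REV-ERB beta, was at 10.7, 8.20 and 11.8 FPKM against 6.06, 6.69 and 9.24 FPKM (0.49, SE 0.12), and *Per2* was at 1.65, 1.77 and 1.80 FPKM against 1.07, 1.51 and 1.32 FPKM (0.42, SE 0.14). Mouse 3 was the highest of its group for *Per3* and *Nr1d2* in both genotypes, and within each number the KO mouse was above the WT mouse. *Ciart* was the fourth. *Nr1d1* (0.43, SE 0.27) and *Dbp* (0.45, SE 0.27) were also positive but varied by mouse, with *Dbp* at 2.12 to 5.40 FPKM in KO controls and 1.64 to 3.59 FPKM in WT controls. Of 6 genes of the opposite phase, *Arntl*, which encodes BMAL1, had a log2 fold change of -0.33 (SE 0.19) and did not pass, whereas 4 of the 6 were positive, 1 of them was higher at the unadjusted threshold without overlap, and the median was 0.08. DESeq2 called *Ciart*, *Per3* and *Nr1d2*. The number of higher genes was 3 or 4 in the fits that left out 1 library, except that it was 7 without KO control 2. The hour at which tissue was taken from each mouse is not given in the sources used here, and its part in these values was not tested.

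The promoter of *Ciart* is shown because it held 3 E-boxes, in capitals (CACGTG, which reads the same on both strands). Its window is on the minus strand at chr3:95882229-95882478 of GRCm38.p6.
*Ciart*: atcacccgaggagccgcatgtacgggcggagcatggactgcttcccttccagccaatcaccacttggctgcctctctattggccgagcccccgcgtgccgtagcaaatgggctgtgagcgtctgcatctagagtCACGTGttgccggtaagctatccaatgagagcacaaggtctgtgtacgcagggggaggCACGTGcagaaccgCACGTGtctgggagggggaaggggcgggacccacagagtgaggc
Of the 11 genes 10 were found among the promoters, and 4 held an E-box (*Ciart*, *Bhlhe41*, *Per1* and *Tef*), against 6.02% of all promoters. Among promoters of tested genes the share was 8.4%. *Per3* and *Nr1d2* did not hold these letters in that window.

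Nerve injury and regeneration genes varied strongly between mice of 1 genotype, and within each genotype *Atf3* and *Sprr1a* were lowest in mouse 3. Damage to a sensory axon induces these genes in the cell body. *Atf3*, a transcription factor that marks injured neurons, was at 8.22, 19.4 and 2.09 FPKM in KO controls 1, 2 and 3 and at 34.8, 60.2 and 2.79 FPKM in WT controls. *Sprr1a*, a growth-associated protein of regenerating axons, was at 7.67, 27.6 and 0.09 FPKM in KO controls and at 57.3, 118 and 0.23 FPKM in WT controls. Mice labelled male thus held far more than mouse 3 in both genotypes, mouse 2 held the most, and each KO mouse was below the WT mouse of its number. *Gal*, the neuropeptide galanin, had the same order at 24.7, 42.1 and 20.5 FPKM against 49.5, 130 and 24.1 FPKM. Of 19 tested genes, 17 had a negative fold change, 7 were lower at the unadjusted threshold (*Tubb6*, *Atf3*, *Gal*, *Csf1*, *Gadd45a*, *Sprr1a* and *Stmn4*) and the median was -0.63, while the groups did not overlap for 0 of 19. The log2 fold changes were -1.47 for *Atf3* (SE 0.50), -2.15 for *Sprr1a* (SE 0.86) and -1.07 for *Gal* (SE 0.38). Without WT control 2 only 1 gene was lower at that threshold and the median was -0.29, and 1 gene remained likewise without KO control 1. Without WT control 3 it was 14 genes, and without KO control 3 it was 4. The macrophage growth factor *Csf1*, which injured neurons make, was at 3.65, 5.20 and 3.31 FPKM in KO controls and at 6.09, 11.3 and 3.51 FPKM in WT controls. Macrophage markers were lower in the KO as well, and any part of the injury genes in that was not tested.

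Genes of cholesterol synthesis were slightly lower. Of 25 tested targets of SREBP2, 20 had a negative fold change, 8 were lower and 0 higher at an unadjusted p under 0.05, and the median was -0.09. *Fdps*, farnesyl diphosphate synthase, was at 39.9, 39.2 and 46.1 FPKM in KO controls and at 57.9, 49.8 and 46.6 FPKM in WT controls (-0.30, SE 0.10). *Mvd* (-0.31, SE 0.11), *Mvk* (-0.23, SE 0.08), *Fdft1* (-0.16, SE 0.06), *Acat2* (-0.21, SE 0.08), *Ebp* (-0.26, SE 0.10), *Pmvk* (-0.20, SE 0.08) and *Hsd17b7* (-0.47, SE 0.21) were the others. *Hmgcs1*, an early enzyme of the pathway, had a log2 fold change of 0.07 (SE 0.10) and did not pass. Without KO control 1 there was 1 lower gene and 1 higher gene at that threshold, and without KO control 2 there were 3 lower genes.

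Transcripts of ribosomal proteins and of nuclear-encoded respiratory chain subunits were lower in most members, but the size of the medians depended largely on WT control 1. Cytosolic ribosomal protein genes were negative in 71 of 76, with a median of -0.20, and 7 were lower at the unadjusted threshold. The groups did not overlap for 9 of the 76, all lower in the KO, against 4.77% of all tested genes. The summed FPKM was 4029 to 4487 in KO controls, 5924 in WT control 1 and 4239 and 4496 in the other WT controls. Without WT control 1 the median was -0.04 and 2 were lower, while leaving out one of the other 5 libraries gave 4 to 31 lower genes, the most without WT control 2, then 23 without KO control 3 and 14 without WT control 3. *Rpl3* was at 87.1, 97.0 and 91.2 FPKM in KO controls and at 138, 105 and 123 FPKM in WT controls (-0.41, SE 0.10), and it has near-identical processed copies in the table that could share its reads. Nuclear-encoded respiratory subunits had a median of -0.13 over 75 genes with 3 lower, and 5 were lower without overlap. Without WT control 1 the median was 0.0017 and 1 was lower, without WT control 2 or KO control 3 18 were lower, and without KO control 2 the count was 0. The 13 mitochondrially encoded genes had a median of 0.10 with 0 at the threshold.

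**Figure D5:**
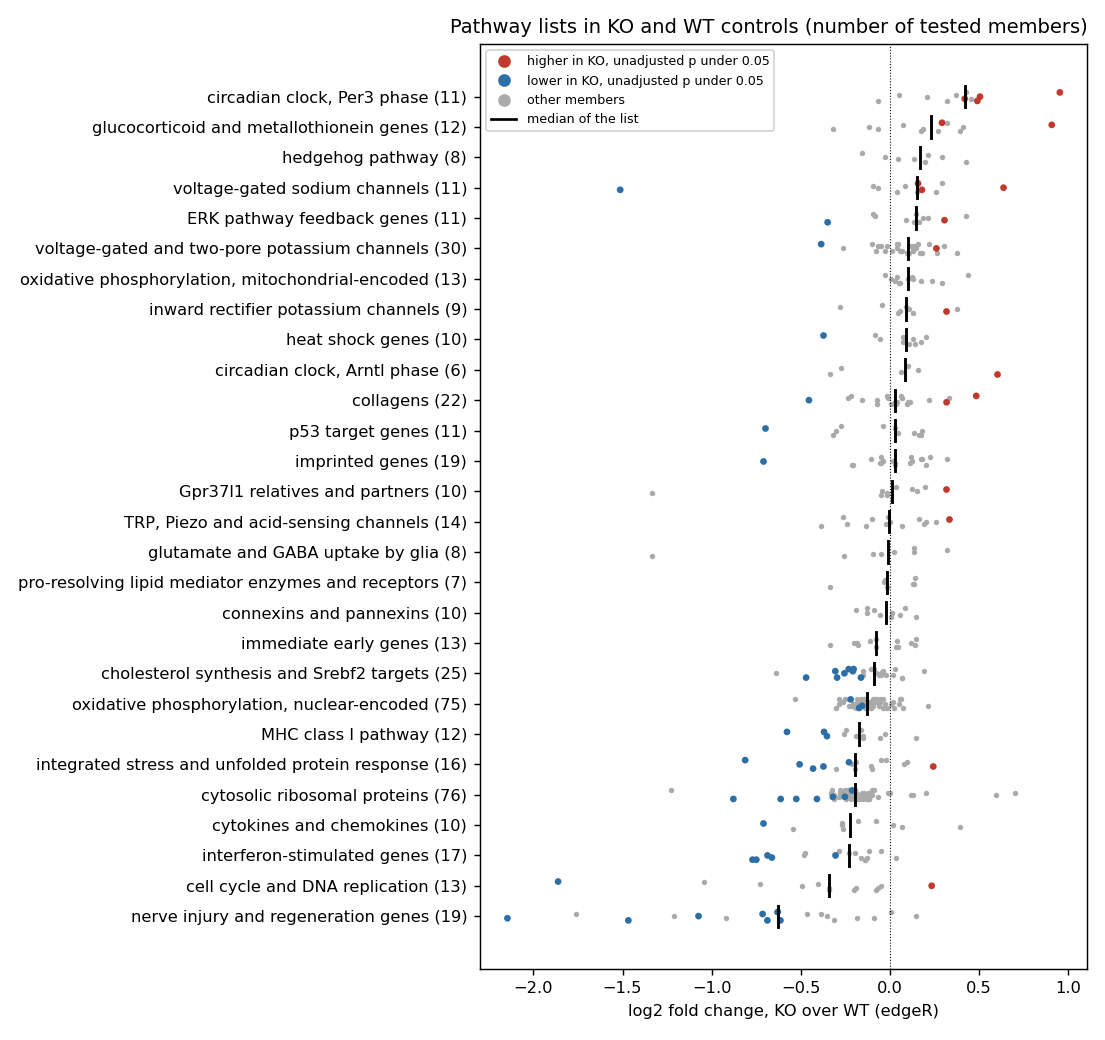
Log2 fold change, KO over WT controls, of each tested member of 28 pathway lists, with the list median as a black bar and members at an unadjusted p under 0.05 in red (higher in KO) or blue (lower). The clock list of the *Per3* phase has the highest median, 0.42, and the nerve injury list the lowest, -0.63.

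Vessel and connective tissue markers moved by small amounts in both directions. Of 11 endothelial markers, *Emcn* (0.42, SE 0.14), *Pecam1* (0.28, SE 0.11) and the angiopoietin receptor *Tek* (0.51, SE 0.20) were higher and did not overlap between groups, while *Ackr1*, a chemokine-binding receptor of venules, was lower (-0.32, SE 0.13). The count of higher endothelial markers was 1 without WT control 1, KO control 1 or KO control 2 and with the 6 control libraries fitted alone. *Ackr1* was at 45.3, 59.3 and 44.1 FPKM in KO controls and at 62.4, 58.2 and 65.8 FPKM in WT controls. *Lum*, a matrix proteoglycan of fibroblasts, was at 28.2, 25.6 and 25.8 FPKM in KO controls and at 19.2, 20.3 and 20.3 FPKM in WT controls (0.41, SE 0.13), and the 9 fibroblast markers had a median of 0.22, or 0.05 without WT control 2. *Col5a2* (0.32, SE 0.10) was higher without overlap, *Col25a1* (0.48, SE 0.15) was higher and *Col5a3* lower (-0.45, SE 0.20) with overlap, and 22 collagen genes had a median of 0.03. Glucocorticoid-responsive genes had a median of 0.23 over 12, with *Klf9* (0.29, SE 0.12) and *Zbtb16* (0.91, SE 0.39) higher, the latter through KO control 1 at 1.18 FPKM against 0.30 to 0.48 FPKM in the other 5 libraries. Without KO control 1 the median was 0.08 and 0 of the 12 passed in edgeR. Skeletal muscle markers summed to 429, 628 and 116 FPKM in KO controls and to 567, 16.4 and 509 FPKM in WT controls, with WT control 2 far below the rest and overlap between genotypes. Neutrophil markers summed to 8.04 to 73.9 FPKM in KO controls and to 30.5 to 83.7 FPKM in WT controls, also with overlap.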

How the data were processed

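Poly(A)-selected RNA of whole DRGs was sequenced after preparation with a strand-specific TruSeq kit. The submitters' processing notes name FastQC, cutadapt, HISAT2 and StringTie and the build mm10; versions, settings and the use of strand in counting are not given in the sources used here. The authors deposited 1 table for the series with estimated counts and FPKM (rounded to 2 decimals) per gene and library. In WT control 1, 573 genes had a count of 3, 1369 a count of 4 and 334 a count of 5, so counts are not tallies of single reads.

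Deposited estimated counts were tested for genes averaging 0.5 FPKM or more over the 6 control libraries, with edgeR 4.0.16 (TMM, quasi-likelihood, R 4.3.3). One fit held 11 libraries in 4 groups with labelled sex as covariate, and the contrast was KO control minus WT control. P values were adjusted by Benjamini-Hochberg over the 15103 genes. DESeq2 1.42.0 and limma 3.58.1, on log2(FPKM + 1) and log2(FPKM + 0.1), served as alternatives, with other scaling, filters and left-out libraries. The code was tested on simulated data. Groups and replicates come from the labels, which do not say how many mice make a library; p values measure the spread between libraries.

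Genes named were *Gpr37l1*, the 12 with the smallest p in each direction without overlap, and genes near *Gpr37l1*. Some of the genes called by DESeq2 were also named, as were some list members taken first, by p or from the extremes. Other members named, such as *Cx3cr1*, *Scn8a*, *Nr1d1* and *Dbp*, were chosen after their values were seen. The members and lists were chosen with earlier results of these data known. KO and WT libraries of the same number deviated together (correlations 0.144, 0.106 and 0.254 across genes), each KO library most with its own number, so the numbers were treated as pairs in an alternative fit, although they name different mice. Promoters are RefSeq sequences (GRCm38.p6). A few list members are counted in their lists but not reported here by name.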

Additional observations from a re-analysis of the deposited data

How the results depend on the processing

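*Gpr37l1* kept its call in all 18 alternatives, with log2 fold changes from -7.28 to -4.74. The count of genes past the adjusted threshold was 1 with edgeR or limma under other scaling, filters and covariates, and 42 with DESeq2. DESeq2 called 36 genes on the 6 control libraries alone and 43 without WT control 1, and both of these fits were chosen after seeing the data. Leaving out 1 library gave 1 to 4 genes. The count was 2 without WT control 2, KO control 1 or KO control 2, and 4 without KO control 3, where *Mcm6* was among them. With the replicate number as a block the count was 1 and the log2 fold change of *Gpr37l1* was -7.05, and the block changed no other call. Of 2007 values of the 112 named genes under the alternatives, 1938 kept their direction and side of the threshold, 53 newly passed it and 16 changed sign. The sign changes came when 1 library was left out. They were in genes with a fold change near 0 or, for *Cd163*, about as large as its SE. Log2 fold changes over these fits ran from -0.16 to 0.57 for *Cd163*, -0.10 to 0.044 for *Gpr37*, -0.063 to 0.17 for *Hmgcs1*, -0.10 to 0.19 for *Ifit2*, -0.18 to 0.15 for *Kcnj10*, -0.041 to 0.010 for *Psap* and -0.064 to 0.13 for *Scn10a*. DESeq2 without WT control 1 gave -0.065 for *Hmgcs1*, -0.10 for *Ifit2* and 0.0085 for *Psap*. Of 954 list medians under the alternatives, 940 moved by less than the spread between libraries and 14 by more. Depth limits the low genes most, since estimated counts of a few reads carry a large error. There were 3 libraries in each group, labelled sex was tied to number 3, and no list was tested as a set. Most list medians stayed within the SD of the list level between libraries, such as nerve injury genes (-0.63, SD 1.17) and satellite glia (-0.05, SD 0.11). Others were beyond it, such as macrophages (-0.31, SD 0.12), interferon-stimulated genes (-0.23, SD 0.14) and *Per3*-phase clock genes (0.42, SD 0.22).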

Other observations

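Several other genes had large differences at an unadjusted p under 0.05 in edgeR and none at the adjusted threshold. *Ugt1a6b*, a glucuronosyltransferase gene of a cluster with shared exons, was at 4.72, 5.08 and 2.53 FPKM in KO controls and at 1.95, 0.17 and 0.27 FPKM in WT controls (log2 fold change 2.41, SE 0.76). Its neighbour in the cluster, *Ugt1a6a*, went the other way (log2 fold change -1.33). How reads were divided between these genes was not tested. *Myh1*, a fast muscle myosin, was at 2.0, 2.60 and 2.89 FPKM in KO controls and at 0.64, 0.16 and 0.32 FPKM in WT controls (2.89, SE 0.93). It was the only 1 of 9 tested muscle markers with a positive fold change. The other 8 were negative, and the summed markers overlapped between genotypes. *Cpeb4*, a regulator of mRNA translation, was at 0.23 and 0.20 FPKM in KO controls 1 and 2 and at 13.1 FPKM in KO control 3, which matched the WT controls at 8.53 to 13.6 FPKM. The imprinted gene *Nnat* was at 11.7, 6.06 and 6.63 FPKM in KO controls and at 15.5, 12.8 and 11.6 FPKM in WT controls (-0.71, SE 0.22), and KO control 1 reached the lowest WT library.

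Some small lists held single genes at the same unadjusted threshold. *Hspb1*, a small heat shock protein of injured neurons, was at 115, 135 and 104 FPKM in KO controls and at 177, 188 and 105 FPKM in WT controls (-0.38, SE 0.13), and mouse 3 was alike in both genotypes. *Aqp4*, a water channel of glia, was at 1.52, 2.19 and 1.96 FPKM in KO controls and at 1.28, 0.95 and 1.72 FPKM in WT controls (0.56, SE 0.19). *Gfra2*, a receptor of C-fibre low-threshold mechanoreceptors (0.22, SE 0.09), and *Cdh8*, a cadherin of cold-sensing neurons (0.34, SE 0.12), were higher with WT control 3 among the KO values. Neither passed the unadjusted threshold without labelled sex in the fit.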
